A study of Mus musculus with 6 samples.

Results

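MHC class II presentation genes carry antigen peptides to the surface of microglia and other phagocytes, and 10 of them were followed in brain cells of Cnr1+/+ and Cnr1-/- mice. They were chosen by symbol as Cd74, H2-Aa, H2-Ab1, H2-Eb1, H2-DMa, H2-DMb1, H2-Oa, Ciita, Cd86 and Ifi30, and all 10 were found among the 19225 listed genes. The cells were enriched with magnetic CD11b beads from the brains, without the cerebellum, of male, stress-naïve mice, and each mouse gave 1 library. The 3 wild type libraries are labelled Cnr1+/+ (strain C57BL6/J, genotype wt/wt) and the other 3 are labelled Cnr1-/- (strain Cnr1 tm1Zim, genotype d/d), with an age of 3 months given for every mouse. The study's general methods describe littermates on a C57BL/6J background, at a lower age than these labels give. Its account of the mice used for these libraries states neither age nor litter. A neomycin cassette interrupts the coding region of Cnr1, the gene of cannabinoid receptor 1, in every cell of the body and not in microglia alone. The comparison asks how microglia of unstressed mice differ when the receptor is missing.

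A class II molecule is a pair of chains, alpha and beta, that is assembled in the endoplasmic reticulum around the invariant chain, the product of Cd74. In endosomes the invariant chain is cut down to a short remnant, which the exchange factor H2-M (H2-DMa with H2-DMb1) removes so that an antigen peptide can take its place, while H2-O restrains that exchange. Ciita encodes the coactivator that switches on the class II genes in B cells, dendritic cells and macrophages, and resting microglia are known to express few of these molecules.

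Ciita is recruited to class II promoters by factors bound to short elements called the X box and the Y box. The promoters of H2-Aa and H2-Eb1 are shown because these genes encode an alpha and a beta chain whose values were both lower in the libraries labelled Cnr1-/-. The sequences are those of RefSeq for GRCm38.p6 (mm10), 5′ to 3′ on the strand of the gene, and cover the 120 bases before the start of transcription, at chr17:34287824-34287943 on the minus strand for H2-Aa and chr17:34305747-34305866 on the plus strand for H2-Eb1. Capitals mark each match to GATTGG, the core of the Y box, and to a form of the X box (AG, any base, AAC, any base and GATG), on either strand.
H2-Aa: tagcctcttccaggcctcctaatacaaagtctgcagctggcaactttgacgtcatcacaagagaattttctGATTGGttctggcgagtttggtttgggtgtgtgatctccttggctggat
H2-Eb1: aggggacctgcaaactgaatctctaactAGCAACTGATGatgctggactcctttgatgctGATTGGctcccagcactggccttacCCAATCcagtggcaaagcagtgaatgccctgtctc

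The Y box core began 49 bases before the start of H2-Aa, and in H2-Eb1 it lay at 60 bases and, on the opposite strand, at 35 bases. H2-Eb1 also held the X box form at 92 bases. Of the 10 genes, 6 had promoter windows (250 bases before to 50 after the start), with 2 windows for H2-DMa. H2-DMb1 held the Y box core at 62 bases and the X box form at 95 bases, H2-Oa held the Y box core at 44 bases, H2-DMa held it at 199 bases in 1 of its 2 windows, and Ifi30 held neither. Among 32851 promoter windows of the mouse genome, 16.1% held the Y box core, 0.298% the X box form and 0.0548% held both. Such a match describes the letters only, and its absence says that these letters are not in that window. Cd74, H2-Ab1, Cd86 and Ciita were not in the promoter table.

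The libraries hold reads from transcript 3′ ends, and the deposited values are CPM (written cpm, relative to each library's reads) with TMM scaling (trimmed mean of M values). The value of 1 read in each library corresponds to between 7708793 and 10723822 reads. For a value of 0, the upper 95% limit of counting is about 3 reads, which equal 0.280 to 0.389 cpm. These limits cover counting error only. Cnr1 itself was at 0 in all 3 libraries labelled Cnr1+/+ and at 1.41, 1.21 and 1.79 cpm (13, 13 and 15 reads) in those labelled Cnr1-/-, which goes against the labels. Whether the labels are exchanged or these reads come from the interrupted gene was not tested, so every direction given here is that of the labels and would turn if they were exchanged. The microglial genes P2ry12, Tmem119 and Sall1 were abundant in all 6 libraries, with Sall1 at 267 to 310 cpm. Replicate 2 labelled Cnr1-/- stood apart through neutrophil genes (4056 cpm summed over 8 genes, against 266 to 523 cpm elsewhere) and erythrocyte genes (2330 cpm over 5 genes, against 136 to 237 cpm), so each member is also given without it.

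The invariant chain gene Cd74 and the chain genes H2-Aa, H2-Ab1 and H2-Eb1 were lower in the libraries labelled Cnr1-/-, by 1.31-fold to 1.49-fold. H2-DMa, a chain of the exchange factor, was higher by 1.30-fold. H2-DMb1, Cd86 and Ifi30 did not pass the test, and H2-Oa and Ciita were too low to enter it. The test was limma on log2(cpm + 0.1) over the 6659 genes whose mean reached 10 cpm, and 8 of the 10 genes were in it. At a nominal p under 0.05, 5 of these 8 passed, against 6.02% of all tested genes. The members were chosen with earlier results of these data known, so such shares are only set side by side and were not tested. With 1 library left out, that share of all tested genes ranged from 3.81% (without replicate 2 labelled Cnr1-/-, where 4 members passed) to 9.07% (without replicate 3 labelled Cnr1+/+, where 5 passed). The 4 that were lower stand beside 0.931% of all tested genes called lower, and the 1 that was higher stands beside 5.09% called higher. The groups did not overlap for 5 of the 8, beside 11% of all tested genes. None of the 8 reached the study's stricter threshold, a fold change over 1.5 at an adjusted p under 0.1, which 0.0901% of tested genes reached. By the same limma fit the median log2 difference over the 8 members was -0.20, against 0.08 over all tested genes.

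Cd74 lies on chromosome 18 (mm10, 60803848 to 60812652, plus strand), apart from the class II cluster. It was measured at 45.3, 50.9 and 46.6 cpm in the libraries labelled Cnr1+/+ (47.6 ± 2.93, SD, n = 3) and at 26.3, 37.5 and 32.7 cpm in those labelled Cnr1-/- (32.2 ± 5.61). Every library labelled Cnr1-/- was below every library labelled Cnr1+/+, a separation in this direction that 2.13% of tested genes showed. The log2 difference, labelled Cnr1-/- minus Cnr1+/+, was -0.58 (SE 0.168, 95% interval -0.92 to -0.23), with a limma p of 0.00195 and an adjusted p of 0.480. Cd74 ranked 27th by nominal p among the 6659 genes and 5th among those that were lower. Its values rest on 243 to 510 reads, for which counting alone gives an error of 6.42% at the fewest. In bulk RNA of this kind, fewer cells that express a gene and less of its RNA per cell cannot be told apart.

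H2-Aa encodes the alpha chain of I-A, the class II molecule that C57BL/6 mice present. It lies on chromosome 17 (34282744 to 34287823, minus strand) and was measured at 46.8, 50.7 and 43.1 cpm in the libraries labelled Cnr1+/+ and at 31.5, 33.1 and 36.0 cpm in those labelled Cnr1-/-. The means were 46.9 ± 3.78 and 33.5 ± 2.29 cpm (SD, n = 3 each), and the groups did not overlap. The log2 difference of H2-Aa was -0.48 (SE 0.160, 95% interval -0.81 to -0.15), with a nominal limma p of 0.00560 and an adjusted p of 0.632.

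H2-Ab1 encodes the beta chain that pairs with it. Its values were 58.8, 52.2 and 52.2 cpm under the label Cnr1+/+ and 42.0, 39.7 and 42.2 cpm under the label Cnr1-/-. The means of 54.4 ± 3.81 and 41.3 ± 1.38 cpm (SD, n = 3 each) were again separated without overlap, and H2-Ab1 (chromosome 17, 34257689 to 34269419, plus strand) had a log2 difference of -0.39 (SE 0.150, 95% interval -0.70 to -0.08). Its limma p was 0.0145 and its adjusted p 0.777.

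H2-Eb1 encodes the beta chain of a second molecule, I-E, whose alpha chain gene is inactive in C57BL/6 mice. It was measured at 56.2, 48.9 and 43.0 cpm in the libraries labelled Cnr1+/+ (49.4 ± 6.59, SD, n = 3) and at 34.6, 33.8 and 37.6 cpm in those labelled Cnr1-/- (35.3 ± 1.99). The libraries labelled Cnr1+/+ spread more widely here than for the other chains, yet their lowest value remained above the highest of the other group. H2-Eb1 (chromosome 17, 34305867 to 34316674, plus strand) differed by -0.47 on the log2 scale (SE 0.161, 95% interval -0.80 to -0.14), with a nominal limma p of 0.00646 and an adjusted p of 0.652. The 3 chain genes rest on 291 to 523 reads per library. For Cd74, the 3 chain genes and H2-DMa alike, a two-sided exact permutation test gave p = 0.1, the smallest that 3 libraries against 3 allow.

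The gene that went the other way was H2-DMa, on chromosome 17 (34119541 to 34139101, plus strand), which encodes the alpha chain of H2-M. It was measured at 44.9, 50.2 and 44.1 cpm in the libraries labelled Cnr1+/+ (46.4 ± 3.32, SD, n = 3) and at 59.9, 63.9 and 57.5 cpm in those labelled Cnr1-/- (60.4 ± 3.23). The groups did not overlap, as for 8.85% of tested genes in this direction. The log2 difference was 0.38 (SE 0.147, 95% interval 0.08 to 0.68), with a limma p of 0.0152 and an adjusted p of 0.792 from 346 to 685 reads. Without replicate 2 labelled Cnr1-/- the log2 difference of H2-DMa was 0.34 and its limma p 0.0606, so its call depends on that library. Brd2, on the opposite strand, overlaps H2-DMa at the 5′ end of each. Brd2 had a log2 difference of 0.13 (limma, adjusted p = 0.910), and the strand setting of the counting is not given in the sources used here. Dexi, on the opposite strand, overlaps Ciita at the 3′ end of each, where the reads of these libraries lie, and had a log2 difference of 0.11 (limma, adjusted p = 0.963), and 6330537M06Rik, at 1.90 cpm or less in every library, overlaps Ifi30 on the opposite strand.

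H2-DMb1 encodes the beta chain that H2-DMa pairs with. It was measured at 45.8, 42.2 and 52.2 cpm in the libraries labelled Cnr1+/+ (46.7 ± 5.06, SD, n = 3) and at 41.4, 61.2 and 40.3 cpm in those labelled Cnr1-/- (47.6 ± 11.8). Replicate 2 labelled Cnr1-/- held the highest value, and the other 2 of that label were the lowest of all 6. The log2 difference of H2-DMb1 was 0.01 (95% interval -0.34 to 0.36, limma, adjusted p = 0.996), and a two-sided exact permutation test gave p = 1. H2-DMb1 (chromosome 17, 34153072 to 34160230, plus strand) has a near-identical neighbour, H2-DMb2, and its value came to a whole number of reads in 1 of 6 libraries, as reads divided between such copies would give, so each of these genes alone is uncertain. Summed, H2-DMb1 and H2-DMb2 came to 51.0, 47.9 and 58.7 cpm under the label Cnr1+/+ and to 45.9, 63.5 and 49.5 cpm under the label Cnr1-/-, and the groups overlapped.

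H2-Oa encodes the alpha chain of H2-O, the modulator of H2-M, and lies on chromosome 17 (34092340 to 34095234, plus strand). Its mean of 8.38 cpm was under the filter. It was measured at 7.13, 6.58 and 6.31 cpm in the libraries labelled Cnr1+/+ (6.68 ± 0.42, SD, n = 3) and at 11.9, 10.7 and 7.63 cpm in those labelled Cnr1-/- (10.1 ± 2.21), on 55 to 115 reads. All 3 libraries labelled Cnr1-/- were above all those labelled Cnr1+/+, with replicate 3 close to them. The log2 difference was 0.57, and the two-sided exact permutation test again gave its smallest value, p = 0.1. With the filter removed, limma gave H2-Oa a 95% interval of -0.05 to 1.18, a p of 0.0698 and an adjusted p of 0.954. BC051537, which overlaps H2-Oa on the opposite strand, was at 0 in the 3 libraries labelled Cnr1+/+ and at 0.325, 0.560 and 1.07 cpm in the others. H2-Ob, the beta chain of H2-O, had a log2 difference of 0.16 (95% interval -0.38 to 0.70, limma, adjusted p = 0.954).

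**Figure D1:**
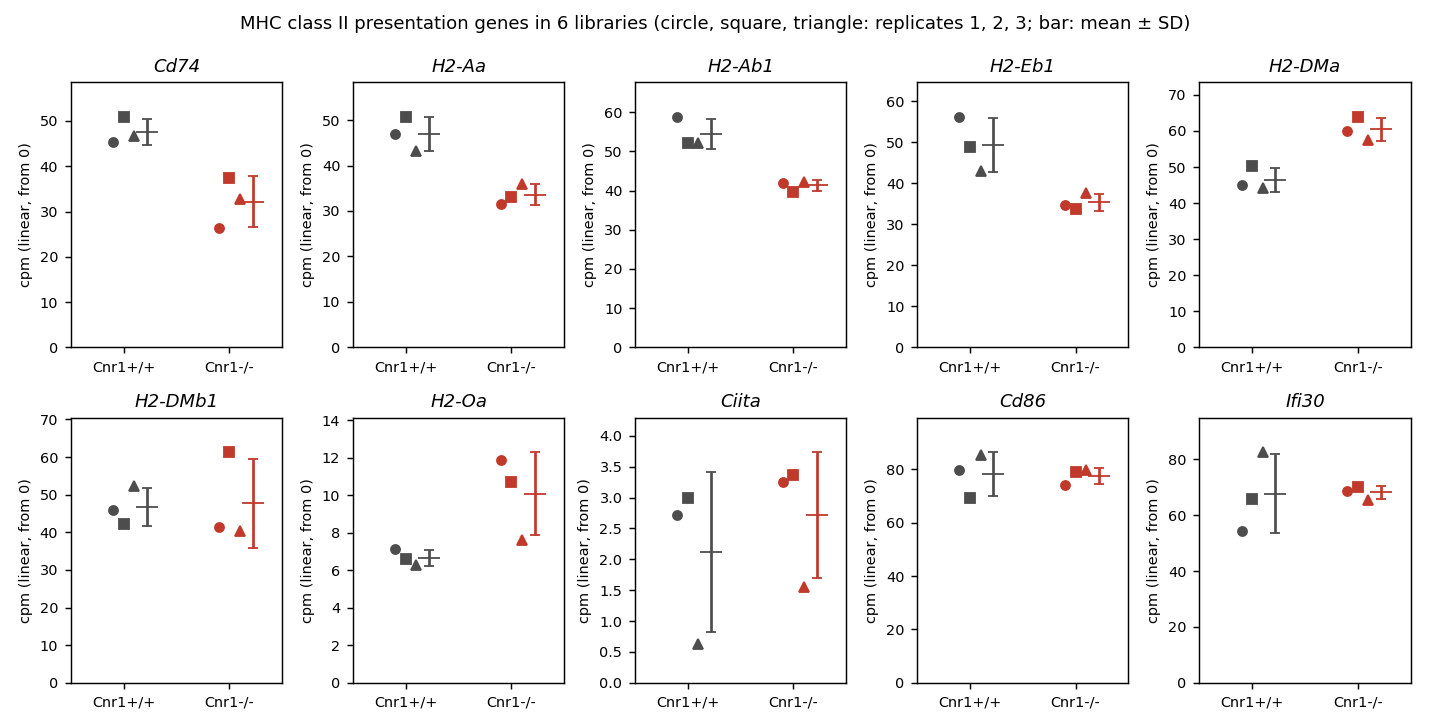
Values in cpm (linear axes from 0, each scaled to its gene) of the 10 class II presentation genes in the 3 libraries of each label, with points for libraries and bars for mean ± SD. Cd74, H2-Aa, H2-Ab1 and H2-Eb1 are lower without overlap under the label Cnr1-/-, H2-DMa and H2-Oa are higher without overlap, and the groups overlap for H2-DMb1, Ciita, Cd86 and Ifi30.

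Because each library holds its own scaling, the members were also compared inside it. The sum of H2-Aa, H2-Ab1 and H2-Eb1 was 162, 152 and 138 cpm in the libraries labelled Cnr1+/+ (151 ± 11.8, SD, n = 3) and 108, 107 and 116 cpm in those labelled Cnr1-/- (110 ± 4.93). The log2 ratio of H2-DMa to this sum, which no scaling of a library can move, was -1.85, -1.60 and -1.65 in the first group (-1.70 ± 0.13) and -0.85, -0.74 and -1.01 in the second (-0.87 ± 0.14). The ratio was thus higher in every library labelled Cnr1-/-, by 0.83 on the log2 scale between the means. It was chosen after the values were seen and was not tested.

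The invariant chain and the chains did not separate in this way. The log2 ratio of Cd74 to the summed chains was -1.84, -1.58 and -1.57 under the label Cnr1+/+ (-1.66 ± 0.15, SD, n = 3) and -2.04, -1.51 and -1.83 under the label Cnr1-/- (-1.79 ± 0.27), and the groups overlapped. The ratio of H2-DMa to H2-DMb1, the 2 chains of H2-M, was -0.03, 0.25 and -0.24 on the log2 scale in the libraries labelled Cnr1+/+ and 0.53, 0.06 and 0.51 in the others, again with overlap.

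**Figure D2:**
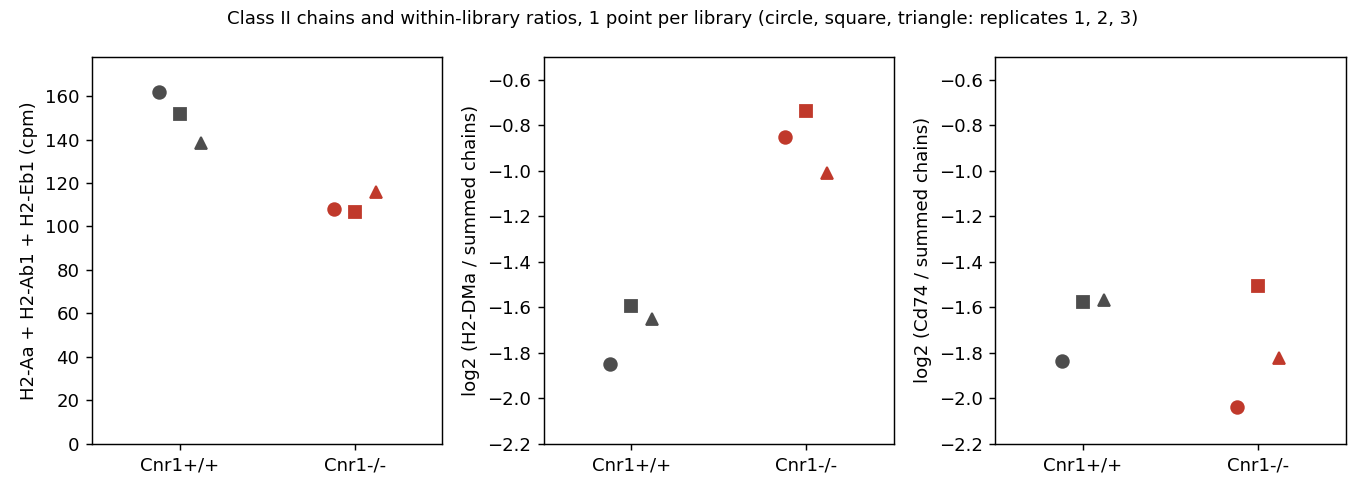
Summed cpm of the 3 chain genes (left, linear axis from 0) and the log2 ratios of H2-DMa (middle) and Cd74 (right) to that sum, with 1 point per library. The sum lies at 138 to 162 cpm under the label Cnr1+/+ and at 107 to 116 cpm under the label Cnr1-/-, the H2-DMa ratio is higher in all 3 libraries labelled Cnr1-/-, and the Cd74 ratio overlaps between the labels.

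Ciita, the coactivator of the class II genes, lies on chromosome 16 (10480059 to 10528418, plus strand) and was close to the lower limit of these libraries. It was measured at 2.72, 2.99 and 0.631 cpm in the libraries labelled Cnr1+/+ (21, 30 and 6 reads) and at 3.25, 3.36 and 1.55 cpm in those labelled Cnr1-/- (30, 36 and 13 reads). Replicate 3 was the lowest of each label and the groups overlapped. The means were 2.12 ± 1.29 and 2.72 ± 1.01 cpm (SD, n = 3 each), and a two-sided exact permutation test gave p = 0.5. With no filter, limma gave Ciita a log2 difference of 0.53 (95% interval -0.75 to 1.80, adjusted p = 0.972), an interval that covers a fall as large as that of the chain genes. Leaving out replicate 3 labelled Cnr1+/+ turned the log2 difference of Ciita to -0.14, so no direction can be given for it at this depth.

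Cd86 encodes a costimulatory ligand that is shown to T cells beside a loaded class II molecule. It lies on chromosome 16 (36603869 to 36666081, minus strand) and was measured at 79.6, 69.1 and 85.4 cpm in the libraries labelled Cnr1+/+ (78.1 ± 8.25, SD, n = 3) and at 74.2, 78.8 and 79.5 cpm in those labelled Cnr1-/- (77.5 ± 2.92). The libraries labelled Cnr1+/+ enclosed all 3 values of the other group. The log2 difference of Cd86 was -0.01 (95% interval -0.29 to 0.28, limma, adjusted p = 0.995), and a two-sided exact permutation test gave p = 0.8.

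Ifi30 encodes a thiol reductase (GILT) that opens disulphide bonds of antigens in endosomes. The deposited data list it as a long non-coding RNA and GENCODE vM21 as a processed transcript. Every other member is listed as protein-coding. It lies on chromosome 8 (70762774 to 70766663, minus strand) and was measured at 54.4, 65.8 and 82.5 cpm under the label Cnr1+/+ (67.6 ± 14.1, SD, n = 3) and at 68.6, 70.2 and 65.5 cpm under the label Cnr1-/- (68.1 ± 2.42). Here too the values labelled Cnr1-/- lay within the spread of those labelled Cnr1+/+. The log2 difference of Ifi30 was 0.03 (95% interval -0.28 to 0.34, limma, adjusted p = 0.986, exact permutation p = 0.8). For Cd86 and Ifi30 the intervals do not reach the falls of Cd74, H2-Aa, H2-Ab1 and H2-Eb1, which lay between -0.58 and -0.39, though the difference between these genes was not tested.

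The rest of the class II pathway was read from 36 further genes, of which 33 were listed and 22 were tested. None passed a nominal limma p of 0.05, also with limma voom. Of the 22, 20 lay above 0 and 2 below, with a median log2 difference of 0.08, beside 0.08 for all tested genes. The values ran from -0.12 for Mif, a cytokine that binds the product of Cd74, to 0.31 for Irf1, a transcription factor induced by interferon-gamma. Irf1, named after its values were seen, had the lowest p of these genes with limma, 0.0761 before and 0.839 after adjustment.

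Of the factors that bind class II promoters, 4 of 7 were tested. Creb1, which binds the X box region, had a log2 difference of 0.02 (limma, adjusted p = 0.991), and Nfya, a Y box subunit, of 0.06 (limma, adjusted p = 0.982). Nfyc, another Y box subunit, lay under the filter at 8.82, 6.39 and 6.21 cpm under the label Cnr1+/+. Under the label Cnr1-/- it was at 9.31, 12.2 and 9.42 cpm, higher without overlap, with a log2 difference of 0.53. With the filter removed, limma gave Nfyc a p of 0.0816 and an adjusted p of 0.954. It was the 1 gene of the 33 listed whose groups did not overlap, beside 11% of all tested genes. Interferon-gamma is the main inducer of Ciita, and 6 of 7 genes of its signalling were tested. Its receptor chain Ifngr1 was measured at 338, 436 and 530 cpm under the label Cnr1+/+ and at 408, 436 and 402 cpm under the label Cnr1-/-, with a log2 difference of -0.04 (limma, adjusted p = 0.981). The receptor's kinase Jak1 had a log2 difference of 0.14 (limma, adjusted p = 0.900).

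The proteases that cut the invariant chain and antigens in endosomes were among the abundant genes of these cells, and all 6 were tested. Ctss, the cathepsin that cuts the invariant chain in its last steps, was measured at 1905, 2147 and 2449 cpm under the label Cnr1+/+ and at 2361, 2599 and 2324 cpm under the label Cnr1-/-. Its log2 difference was 0.17 (limma, adjusted p = 0.900), and the groups overlapped. Ctsd, an aspartic protease of lysosomes, had a log2 difference of 0.11 (limma, adjusted p = 0.946).

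March1 and March8 encode ubiquitin ligases that remove class II molecules and Cd86 from the surface. Their log2 differences were 0.14 (limma, adjusted p = 0.937) and 0.05 (limma, adjusted p = 0.987). Of the other costimulatory genes, 2 of 6 were tested: Icosl, a ligand for T cell help, differed by 0.25 (limma, adjusted p = 0.887) and Cd83, which protects class II from March1, by 0.01 (limma, adjusted p = 0.995). Of the 4 genes listed as partners of Cd74, Mif alone was tested (limma, adjusted p = 0.954), while Cd44, which signals together with the product of Cd74, lay under the filter at 2.42 to 4.59 cpm in the libraries labelled Cnr1+/+ and 3.14 to 10.2 cpm in the others.

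**Figure D3:**
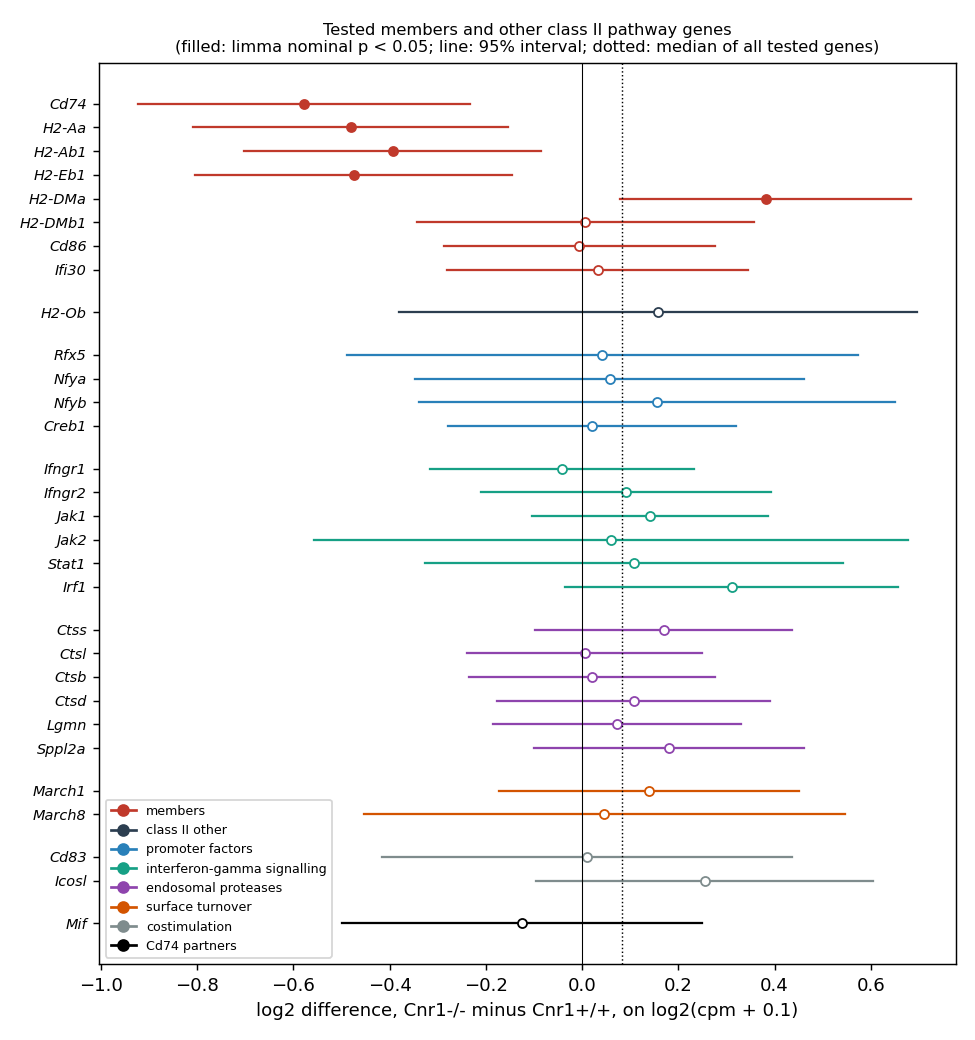
Log2 differences (labelled Cnr1-/- minus Cnr1+/+, on log2(cpm + 0.1)) of the 8 tested class II members and 22 other pathway genes, with 95% intervals from limma and filled points for a nominal p under 0.05. Filled points are Cd74, H2-Aa, H2-Ab1 and H2-Eb1 on the left and H2-DMa on the right, and the open points of the pathway lists lie around the dotted median of all tested genes at 0.08.

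The 6 H2 genes lie together within 224335 bases of chromosome 17 (34092340 to 34316674), among which 7 other genes are listed. Of these, 6 were tested and 0 passed a nominal limma p of 0.05. Between H2-DMb1 and H2-Ob lie the genes of the peptide transporter and immunoproteasome, which serve MHC class I. These had log2 differences of -0.11 for Psmb9, -0.10 for Tap1, 0.05 for Psmb8 and 0.32 for Tap2 (limma, adjusted p = 0.839). Along the chromosome, H2-DMa, which was higher, and the 3 chain genes, which were lower, lie on either side of these genes.

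Across the 6 libraries the pattern of Cd74 was most like that of Cd2bp2, G6pdx and AI662270, when each tested gene was centred on its own mean in log2 cpm. The root mean square differences from Cd74 were 0.0977, 0.0990 and 0.106 for these genes, among 6658. H2-Aa was the 5th most similar gene to Cd74 at 0.147, while H2-Eb1 was 88th and H2-Ab1 96th. From H2-Aa the nearest genes were Psmc6 (0.0869), Nfs1 (0.0911) and G6pdx (0.0936), followed among the members by H2-Eb1 as 6th (0.103), H2-Ab1 as 8th (0.113) and Cd74 as 22nd (0.147). H2-DMa came 5602nd from Cd74 and 5297th from H2-Aa. These ranks describe 6 libraries and contain the difference between the labels.

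Class II genes are expressed strongly by border-associated macrophages, dendritic cells and B cells, so marker genes of these cells were read in the same libraries. Of 9 genes of border-associated macrophages, 7 were tested and 1 was lower, Pf4, a chemokine gene (log2 difference -0.48, with a nominal limma p of 0.0405), with a median of -0.24 over the 7, of which 4 lay below 0 and 3 above. Their summed level was 304 to 431 cpm under the label Cnr1+/+ and 345 to 371 cpm under the label Cnr1-/-. Most of that sum was Stab1, at 189, 231 and 282 cpm against 245, 273 and 226 cpm, so it says little of the other genes. Among their defining markers, Mrc1 was measured at 31.3, 43.4 and 49.96 cpm in the libraries labelled Cnr1+/+ and at 36.1, 28.5 and 40.1 cpm in the others, a log2 difference of -0.24. Cd163 was at 14.9, 7.98 and 11.7 cpm against 10.9, 14.5 and 11.8 cpm (log2 difference 0.14). Lyve1 was at 9.99, 9.58 and 14.8 cpm against 9.31, 11.7 and 15.5 cpm (log2 difference 0.08), and the groups overlapped for all 3 markers. Of the other tested genes of the list, Cbr2 had a log2 difference of -0.58 with a nominal limma p of 0.0547, F13a1 of -0.31 and Stab1 of 0.10. Ms4a7, under the filter, had a mean log2 difference of -0.58, and Siglec1 was at 1.52 cpm or less in every library.

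Of 11 dendritic cell genes, 7 were listed and 2 tested, with 0 passing and a median log2 difference of -0.41 over those tested. All 7 listed genes lay below 0, though Xcr1, at 0.466 cpm or less in every library, did so by only -0.04. For Itgax, under the filter at 6.10, 5.59 and 6.52 cpm against 5.52, 5.13 and 2.27 cpm, the groups did not overlap. They were parted only by 5.59 against 5.52 cpm, and 2.13% of all tested genes were separated in this direction. Their sum was 32.5 to 45.0 cpm under the label Cnr1+/+ and 21.7 to 34.6 cpm under the label Cnr1-/-. Flt3, a defining receptor of these cells, was at 0.389, 0 and 2.00 cpm in the libraries labelled Cnr1+/+ and at 0.217, 0.187 and 0 cpm in the others, with at most 19 reads in a library. Zbtb46, another defining gene, was at 1.30, 2.49 and 5.15 cpm against 1.19, 1.03 and 3.58 cpm. Clec10a had a log2 difference of -0.54, with a nominal limma p of 0.0775.

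Of 8 B cell genes, 5 were listed and 1 was tested, Ighm, with a log2 difference of 0.17 and a nominal limma p of 0.199. The sum of the list was 112 to 147 cpm under the label Cnr1+/+ and 141 to 147 cpm under the label Cnr1-/-. Most of it was Ighm, at 102 to 136 cpm and 129 to 132 cpm. The defining gene Cd79a was at most 1.04 and 1.68 cpm. Pax5 was at 0, 0 and 0.316 cpm against 0.433, 0.933 and 0.477 cpm, higher without overlap on at most 10 reads. Of all tested genes, 8.85% were separated in this direction. The 13 microglial genes were all tested and none passed, with sums of 17047 to 19875 cpm and 18273 to 19522 cpm. Monocyte genes came to 30.3 to 36.0 cpm and 30.3 to 108 cpm, with 1 of 2 tested genes, Chil3, higher. In replicate 2 labelled Cnr1-/-, Chil3 alone gave 68.4 of the 108 cpm. The defining gene Ccr2 was the other tested gene, with a log2 difference of -0.09. Ly6c2, also defining but under the filter, was highest in that library at 11.2 cpm. Of the neutrophil genes 7 of 8, and of the tested erythrocyte genes 4 of 4, were higher. Each of these, and Chil3, had its highest value in replicate 2 labelled Cnr1-/-. What part the cells of any of these lists had in the differences of the members was not tested. Without replicate 2 labelled Cnr1-/-, the log2 differences were -0.69 for Cd74, -0.47 for H2-Aa, -0.37 for H2-Ab1 and -0.44 for H2-Eb1, with nominal limma p-values of 0.000649, 0.0154, 0.0463 and 0.0219. For H2-DMa, given above, it was 0.34, and H2-DMb1, whose highest value was in that library, came to -0.19. The log2 differences were then 0.51 for H2-Oa, 0.34 for Ciita, -0.018 for Cd86 and 0.0098 for Ifi30.

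**Figure D4:**
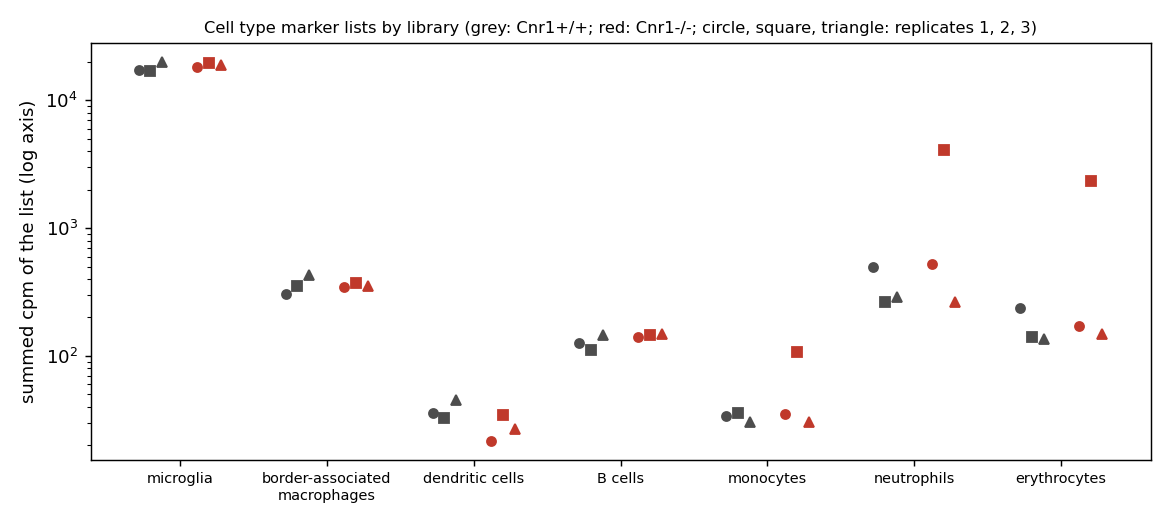
Summed cpm (log axis) of 7 cell type marker lists, with 1 point per library. Microglial genes lie near 17047 to 19875 cpm in all libraries, dendritic cell genes at 21.7 to 45.0 cpm, and replicate 2 labelled Cnr1-/- stands out for monocyte, neutrophil and erythrocyte genes.

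The calls of the 4 lower genes were then followed through 17 other settings, among them other scalings, other limma fits and each library left out in turn. In all 68 of these fits the gene was lower with a nominal limma p under 0.05, with log2 differences from -0.69 to -0.34 and p from 0.000200 to 0.0463. The adjusted p of these fits ranged from 0.190 to 0.999, and none reached the adjusted threshold. H2-DMa was higher in 17 of 17 settings and passed the nominal threshold in 16, with log2 differences of 0.28 to 0.44.

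**Figure D5:**
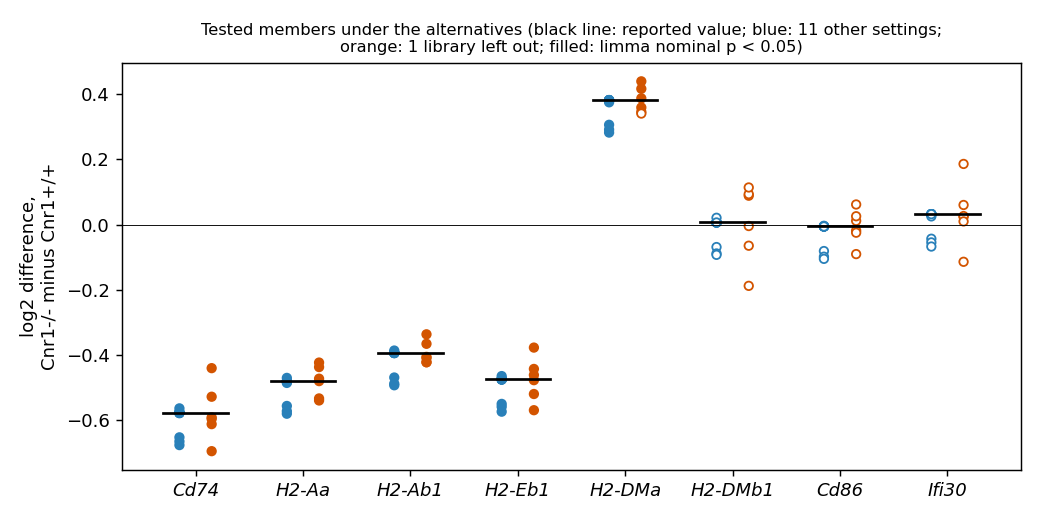
Log2 differences of the 8 tested members under 11 other settings (blue) and with 1 library left out (orange), the reported value as a black line, and filled points for a nominal limma p under 0.05. Cd74, H2-Aa, H2-Ab1 and H2-Eb1 stay between -0.69 and -0.34, H2-DMa between 0.28 and 0.44 with 1 open point, and H2-DMb1, Cd86 and Ifi30 fall on either side of 0.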

How the data were processed

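RNA of CD11b-enriched brain cells was measured in 3 libraries labelled Cnr1+/+ and 3 labelled Cnr1-/-, grouped by the sample titles. No column was left unmapped (0). The authors aligned trimmed 3′ reads to mm10 with STAR, divided reads between Ensembl transcripts by expectation-maximisation in Partek and applied TMM, and the deposited values are CPM, which are not scaled to gene length. Reads shared by similar genes are split by that step. From 82.5% to 84.8% of the values were whole multiples of 1 read (tolerance 0.01 read), too few for a count test, so read numbers given here are derived from these steps.

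The genotype labels were compared by limma 3.58.1 (R 4.3.3, eBayes with trend) on log2(CPM + 0.1), with no other term, over the 6659 genes whose mean reached 10 CPM, and p-values were adjusted over all of them by Benjamini-Hochberg. Fold changes on this scale understate changes of low genes. Single members were also compared by a two-sided exact permutation test.

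The members and all lists were chosen with earlier results of these data known. Named are the members, pathway genes with a nominal p under 0.05 and the 2 highest of each list, marker lists by their sums and defining markers, and the 3 genes most like Cd74 and H2-Aa. Genes of the class II interval, overlapping genes, Irf1, Nfyc, Ighm, Pax5, Itgax, Xcr1, Chil3, Cbr2, F13a1, Stab1, Ms4a7, Siglec1, Pf4 and Clec10a were named after their values were seen. H2-Eb2, H2-Ea, Pdcd1lg2, Clec9a and Ms4a1 were not analysed here. Coordinates are those of the deposited file in mm10, and 18870 of the 19225 symbols were in GENCODE vM21, 18704 with the same start and end. Alternatives were a pseudocount of 1 or of 0.01, a filter of 20 or none, median centring, quantile normalisation, rescaling to equal totals less mitochondrial genes, limma without trend, with vooma and with voom, a block for the replicate number, and leaving out 1 library at a time. The plots used matplotlib 3.10.9 (Python 3.11.15).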

Additional observations from a re-analysis of the deposited data

How the results depend on the processing

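The count of members with a nominal limma p under 0.05 was 5, and 4 to 5 over 17 alternatives, 4 without Cnr1-/- replicate 2, where H2-DMa fell out with a p of 0.0606. The share of all tested genes called was 6.02%, 3.81% without that library and 9.07% without Cnr1+/+ replicate 3. The count of pathway genes was 0, and 0 to 2 when 1 library was left out: Irf1 passed without Cnr1+/+ replicate 1 (log2 difference 0.38, adjusted p = 0.807), Irf1 (0.40, adjusted p = 0.524) and Ctss (0.26, adjusted p = 0.516) without Cnr1+/+ replicate 3, and Irf1 without Cnr1-/- replicate 1 (0.43, adjusted p = 0.856). Members near 0 changed sign. The log2 difference of H2-DMb1 was -0.069 after median centring, -0.089 after quantile normalisation, -0.093 after rescaling to equal totals, and -0.19 to 0.11 with 1 library left out. Ifi30 was -0.043, -0.055 and -0.067 under those scalings and -0.11 to 0.19 with 1 library left out, and Cd86 was -0.090 to 0.062 with 1 library left out. The median log2 difference of all tested genes was 0.08, and 0.0084, -0.0014 and -0.015 under the 3 scalings. Same-numbered libraries did not deviate together (correlations -0.056, -0.032 and -0.031). These values give no sign of pairing by number, but they cannot show that the mice were unpaired. With the replicate block 5 members and 0 pathway genes were called, and it changed no call. Ciita and H2-Oa were tested only without the filter, and depth limits what can be said of them.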
